A study of Danio rerio with 52 samples.

Results

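The copper response of sorted zebrafish mantle cells was compared with that of non-fluorescent skin cells, 3 h and 5 h after treatment ended. The members were 27 of the 52 arrays in the study, chosen by their labels. They are mCherry+ mantle cells 3 h (n = 4) and 5 h (n = 4) after copper and untreated (n = 5), and non-fluorescent cells 3 h (n = 4) and 5 h (n = 4) after copper and untreated (n = 6). The measure is the response of each population, meaning the average of its 3 h and 5 h group means minus its untreated mean, and then the mantle response minus the non-fluorescent response. It was taken for all 19260 named genes, with 1 probe set per gene. All larvae were 4 days old and carried alpl:mCherry, which marks mantle cells, together with either pou4f3:GFP, which marks hair cells, or ET20, which marks most mantle cells. The labels do not say which of these lines gave the mCherry+ and non-fluorescent cells, nor whether replicates came from separate clutches, so p-values measure the spread between these samples. Treated larvae were kept in 5 µM copper sulfate for 1 h, each sample held cells from about 50 skins, and 1 ng of RNA was amplified before hybridization to an Affymetrix array. The number of arrays limits the precision. The authors had left out a few samples that did not cluster in a principal component analysis. Mantle cells were sorted on mCherry, so the gate depends on the reporter, and the non-fluorescent sort is a mixture of skin cells rather than 1 cell type.

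Neuromasts of the lateral line are small sense organs in the skin, with mechanosensory hair cells at the centre, support cells around them and a rim of mantle cells. Copper kills the hair cells of zebrafish larvae, and new ones arise within days from the support cells that remain. Mantle cells are candidates for a reserve of progenitors, and Notch, Wnt and Fgf signalling are known to govern how neuromast cells divide and differentiate. The comparison asks which genes respond to copper differently in mantle cells and in the non-fluorescent cells. A difference does not by itself separate a response of the organ from a general effect of the metal, since the non-fluorescent sort is a mixture.

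Levels are log2 values, with each array shifted so that its median over the named genes is 4.85, and changes are log2 differences ± SE. The cells sorted as mantle cells held more of the neuromast support and mantle list than the non-fluorescent cells. The mean level of its 28 measured genes lay between 6.41 and 7.23 in the mantle arrays and between 5.32 and 5.77 in the non-fluorescent arrays, without overlap. Hair cell genes (31 measured) were at a like mean level in both, from 4.25 to 4.59 in mantle and from 4.23 to 4.64 in non-fluorescent arrays. All these means lay below the array median of 4.85, so low signal limits this likeness. In bulk samples of this kind, fewer cells of a type and less RNA per cell cannot be told apart.

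A property of the deposited values limits every test here. In each population the mean of replicates 1 to 3 over 3 h and 5 h equals that of replicate 4 for every gene, with a largest gap of 6.67e-05, so the values had been adjusted before deposit. Replicate 4 alone therefore gives the same difference by construction (largest shift 0.0056 after centring) and is no independent check. The fit used here has a term for replicates 1 to 3 at these times, which leaves the size of each difference as it is and widens its error. For mhc1zba the SE was 0.55 with the term and 0.36 without it. The labels describe the copper time course as imported apart from the comparison of untreated populations. Non-fluorescent array medians on the deposited scale were 4.88 to 5.14 after copper and 4.75 to 4.92 untreated, so a processing difference and the treatment cannot be told apart against untreated arrays. For this reason the same difference is also given with the copper-treated 1 h and 11 h arrays of each population in place of the untreated ones. That comparison is called here the difference within treated arrays. It does not remove every processing difference, since the 1 h and 11 h arrays do not follow the equality found at 3 h and 5 h. In mantle cells the mean of an erythrocyte gene list was 3.74, 3.75 and 3.74 in replicates 1 to 3 at 1 h and 2.27 in replicate 4. At 11 h it was 3.72, 3.74 and 3.81, and 2.04 in replicate 4. Time and processing cannot be told apart there either.

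The response differed between the populations in 18 of 19260 genes at an adjusted p below 0.05 (0.0935%), by limma with Benjamini-Hochberg adjustment. The mantle response was the higher one in 11 genes (0.0571%), among them mhc1zba, dynlrb1, naprt, ndufa6 and idi1, and the lower one in 7 (0.0363%), among them atmin, nrgna, lactb and gata2a. At an unadjusted p below 0.05 there were 2094 genes. Without the adjustment term 2665 genes were called (13.8%), 1177 higher (6.11%) and 1488 lower (7.73%). These included all 18, which is no separate check, since the term mainly widens the error. Leaving out 1 array at a time gave 5 to 179 genes. Adjustment terms for the untreated arrays too gave 7. The first such term covered non-fluorescent replicates 5 and 6 and mantle replicates 1 and 2. The other covered non-fluorescent replicate 1 and mantle replicates 3 and 4. Keratinocyte list means were 8.665 and 8.6679 in untreated non-fluorescent replicates 5 and 6, and 6.9897 and 6.9946 in untreated mantle replicates 1 and 2. Whether such arrays are full replicates was not tested. Without centring 14 were called, 5 higher and 9 lower, and with medians over all probe sets 12, 6 in each direction. The fit that called 18 took its error from 46 arrays, among them those of 1 h and 11 h. A fit to the member arrays alone called 108 genes, 41 higher and 67 lower, so the count depends on which arrays give the error. Of the 18, 3 carry placeholder symbols and are not named. The mantle response alone was called in 9 of the 18 genes, the non-fluorescent response alone in 7, and neither in 2. These classes follow the threshold and do not test which population responded more. The scatter of both responses shows where these genes lie.

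**Figure D1:**
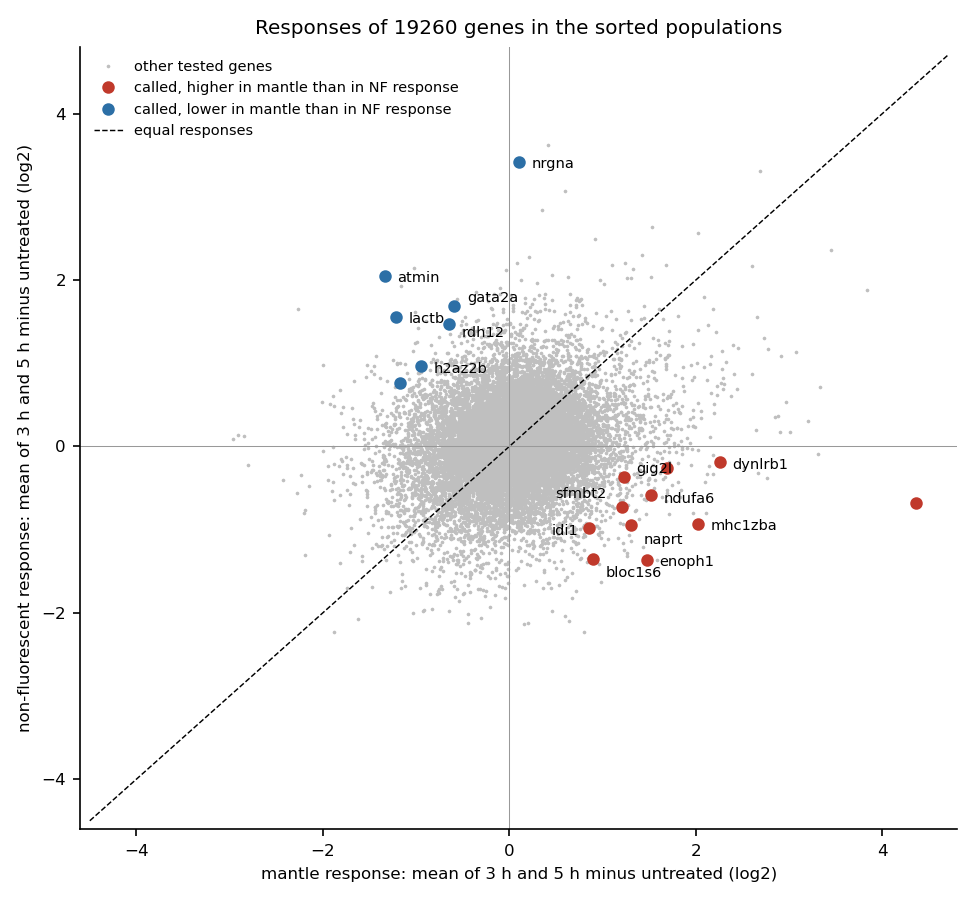
Mantle response (x axis) against non-fluorescent response (y axis), each the mean of 3 h and 5 h minus untreated in log2 units, 1 point per gene for 19260 genes. Red points are the 11 genes with a higher and blue points the 7 genes with a lower mantle response at an adjusted p below 0.05, with the 3 placeholder symbols unlabelled; the red genes lie below the dashed line of equal responses and the blue ones above it.

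Among the genes higher in mantle cells, mhc1zba, a class I gene of the major histocompatibility complex, stood at 7.56, 7.71, 7.97 and 7.37 at 3 h and at 7.47, 6.80, 7.42 and 7.70 at 5 h in mantle cells, against 5.65, 5.28, 5.67, 4.99 and 5.99 untreated. In non-fluorescent cells it stood at 5.38, 5.91, 5.37 and 6.28 at 3 h and 6.09, 6.47, 6.46 and 5.69 at 5 h, against 7.16, 6.79, 8.11, 5.95, 6.57 and 6.93 untreated. Every mantle array of 3 h and 5 h was above every untreated one, while the non-fluorescent groups overlapped. The responses were 2.02 ± 0.40 (adjusted p = 0.00603) in mantle and -0.93 ± 0.39 (adjusted p = 0.218) in non-fluorescent cells, and their difference was 2.95 ± 0.55 (limma adjusted p = 0.019). Within treated arrays the difference was 3.50 ± 0.52 (adjusted p = 0.000374), and the mantle arrays of 1 h and 11 h lay between 4.16 and 5.75, overlapping the untreated ones.

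Dynlrb1, a light chain of the motor dynein, rose in mantle cells. Mantle cells held 8.83, 8.75, 8.60 and 8.96 at 3 h and 9.37, 8.24, 8.53 and 8.57 at 5 h, against 6.77, 6.73, 6.40, 6.54 and 6.14 untreated. Non-fluorescent cells ranged from 5.77 to 6.60 at 3 h and from 6.61 to 7.01 at 5 h, against 6.36 to 7.27 untreated. Only the mantle groups were apart from each other. The mantle response was 2.25 ± 0.36 (adjusted p = 0.00101) and the non-fluorescent one -0.19 ± 0.35 (adjusted p = 0.845), with a difference of 2.45 ± 0.50 (adjusted p = 0.0346).

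Genes of metabolism were among the called ones. Naprt, which makes NAD from nicotinic acid, was at 7.32, 7.61, 8.10 and 7.89 at 3 h and 8.22, 7.21, 8.23 and 7.77 at 5 h in mantle cells, against 6.66, 6.61, 6.57, 6.80 and 5.98 untreated. In non-fluorescent cells it was at 5.20 to 5.88 at 3 h and 5.37 to 6.01 at 5 h, against 6.40 to 7.03 untreated. These groups did not overlap in either population. The 3 h and 5 h arrays were on top in mantle cells and at the bottom in non-fluorescent cells. Only the mantle response was called (1.31 ± 0.31, adjusted p = 0.0224, against -0.95 ± 0.30, adjusted p = 0.0941), and the difference was 2.25 ± 0.43 (adjusted p = 0.0222).

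Ndufa6, a subunit of respiratory complex I, ranged from 9.17 to 10.33 at 3 h and from 9.0001 to 9.80 at 5 h in mantle cells, against 7.64 to 8.47 untreated. In non-fluorescent cells the ranges were 7.37 to 8.03 and 8.01 to 8.54, against 8.33 to 8.97 untreated. Here the mantle groups were apart and the non-fluorescent groups overlapped at 5 h. The difference was 2.101 ± 0.42 (adjusted p = 0.029), with a mantle response of 1.52 ± 0.30 (adjusted p = 0.00603) and a non-fluorescent response of -0.58 ± 0.29 (adjusted p = 0.326). Of the 50 measured genes of the respiratory chain list it was the only one called, beside 0.0935% of all genes. The list's median difference was 0.16, beside -0.02 over all genes. In the mantle response alone ndufa6, ndufa9a (1.01 ± 0.27) and cox6a1 (1.18 ± 0.29) rose, beside 0.82% of all genes, and ndufs8a (-1.43 ± 0.32) fell, beside 0.691%.

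Idi1, an isomerase of the mevalonate pathway to sterols, moved in opposite directions in the populations, and only its non-fluorescent response passed the threshold. It was at 9.22, 9.20, 9.28 and 9.32 at 3 h and 9.04, 9.13, 8.56 and 8.92 at 5 h in mantle cells, against 8.22, 8.09, 8.29, 8.34 and 8.39 untreated. Non-fluorescent cells gave 6.77, 6.35, 7.36 and 6.25 at 3 h and 6.96, 7.08, 6.66 and 7.56 at 5 h, against 7.76, 7.94, 7.74, 8.06, 7.88 and 7.98 untreated. Arrays of 3 h and 5 h lay above all untreated ones in mantle cells and below all of them in non-fluorescent cells. At 11 h mantle cells held 7.41 to 8.04, below all untreated ones. Non-fluorescent cells held 7.64 to 8.88 at 1 h and 11 h. The responses were 0.85 ± 0.27 (adjusted p = 0.0896) and -0.99 ± 0.26 (adjusted p = 0.0419), the difference 1.84 ± 0.37 (adjusted p = 0.0322), and within treated arrays 2.28 ± 0.35 (adjusted p = 0.00052). It was the only called gene of 26 measured in the cholesterol and fatty acid synthesis list (beside 0.0935% of all genes), whose median difference was 0.42, beside -0.02 over all genes.

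Bloc1s6, a subunit of the BLOC-1 complex that serves lysosome-related organelles, was likewise called in non-fluorescent cells, where it fell by 1.35 ± 0.33 (adjusted p = 0.026). Its levels were 5.63 to 6.63 at 3 h and 7.18 to 8.23 at 5 h in non-fluorescent cells, against 7.85 to 8.81 untreated, while mantle cells held 8.57 to 9.19 and 8.35 to 9.18, against 7.66 to 8.12 untreated. The 3 h arrays were the low ones, and the difference was 2.25 ± 0.47 (adjusted p = 0.0405). Enoph1, of the methionine salvage pathway, differed by 2.84 ± 0.61 (adjusted p = 0.0448) with neither response called (1.47 ± 0.43 in mantle and -1.37 ± 0.42 in non-fluorescent cells). Sfmbt2, a Polycomb group protein, rose in mantle cells by 1.203 ± 0.30 and differed by 1.93 ± 0.42 (adjusted p = 0.0482). Gig2l, of a family of fish genes induced by virus, was low throughout: 3.38 to 3.81 at 3 h and 3.59 to 4.17 at 5 h in mantle cells, against 2.50 to 2.58 untreated. Its difference was 1.60 ± 0.35 (adjusted p = 0.0482), its mantle response 1.23 ± 0.25 (adjusted p = 0.00813), and its values lie below the array median of 4.85.

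In the other direction, nrgna had the lowest adjusted p of the named genes. It encodes neurogranin, a calmodulin-binding protein known from neurons. Mantle cells held 2.85, 2.73, 2.76 and 2.92 at 3 h and 3.04, 2.71, 3.31 and 2.98 at 5 h, against 2.53, 3.06, 2.89, 2.86 and 2.89 untreated. Non-fluorescent cells held 7.87, 6.99, 7.35 and 7.36 at 3 h and 6.72, 6.02, 6.56 and 6.56 at 5 h, against 3.73, 3.53, 2.97, 3.92, 3.66 and 3.44 untreated. The gene was low in all mantle arrays, all below the array median of 4.85, and every non-fluorescent array at 3 h and 5 h stood far above the untreated ones. The non-fluorescent response was 3.42 ± 0.37 (adjusted p = 3.65e-07), the mantle response 0.10 ± 0.38 (adjusted p = 0.935), and the difference -3.32 ± 0.53 (adjusted p = 0.00377). Levels at 1 h (2.52 to 5.21) and 11 h (3.13 to 3.87) in non-fluorescent cells were lower than at 3 h and 5 h, and within treated arrays the difference was -2.50 ± 0.50 (adjusted p = 0.00968).

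Atmin, a zinc finger factor that in mammals binds ATM and controls a dynein light chain gene, ranged from 2.97 to 4.197 at 3 h and from 2.35 to 4.06 at 5 h in mantle cells, against 4.52 to 5.17 untreated. In non-fluorescent cells the values were 6.35, 6.58, 7.07 and 6.71 at 3 h and 6.72, 6.51, 7.05 and 6.79 at 5 h, against 5.22, 4.97, 3.79, 4.68, 4.79 and 4.77 untreated. The populations overlapped when untreated and did not overlap at 3 h and 5 h. They overlapped at 1 h too. At 11 h the order was reversed, with mantle cells at 4.62 to 6.21 and non-fluorescent cells at 3.44 to 4.19, below the array median. All mantle values at 3 h and 5 h were below the array median of 4.85, so low signal limits them. The non-fluorescent response was 2.05 ± 0.44 (adjusted p = 0.0119), the mantle response -1.34 ± 0.45 (adjusted p = 0.12) and the difference -3.39 ± 0.63 (adjusted p = 0.019). Within treated arrays it was -4.25 ± 0.60 (adjusted p = 0.000299), and the 11 h arrays with the reversed order enter that value.

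Lactb, a mitochondrial protein, was at 4.52 to 5.61 at 3 h and 5.03 to 5.74 at 5 h in mantle cells, against 6.10 to 7.76 untreated. It was at 6.47 to 7.97 and 6.12 to 7.38 in non-fluorescent cells, against 5.32 to 5.71 untreated. The groups were apart in both populations, and the difference was -2.77 ± 0.57 (adjusted p = 0.0346), with the non-fluorescent response called (1.56 ± 0.40, adjusted p = 0.035).

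Gata2a, a zinc finger transcription factor, rose in non-fluorescent cells by 1.69 ± 0.32 (adjusted p = 0.00403), to between 5.86 and 6.997 at 3 h and between 5.52 and 6.43 at 5 h, against 4.03 to 4.93 untreated. Mantle cells were at 3.41 to 4.43, against 4.07 to 4.62 untreated, and the difference was -2.28 ± 0.46 (adjusted p = 0.0322). Within treated arrays it was -0.54 ± 0.44 (adjusted p = 0.651), and the 11 h arrays of non-fluorescent cells were at 5.55 to 6.19. Rdh12, a retinol dehydrogenase, rose in non-fluorescent cells by 1.47 ± 0.31 (adjusted p = 0.0115) and differed by -2.12 ± 0.45 (adjusted p = 0.0405). H2az2b, which encodes the histone variant H2A.Z, differed by -1.91 ± 0.42 (adjusted p = 0.0482) with neither response called.

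**Figure D2:**
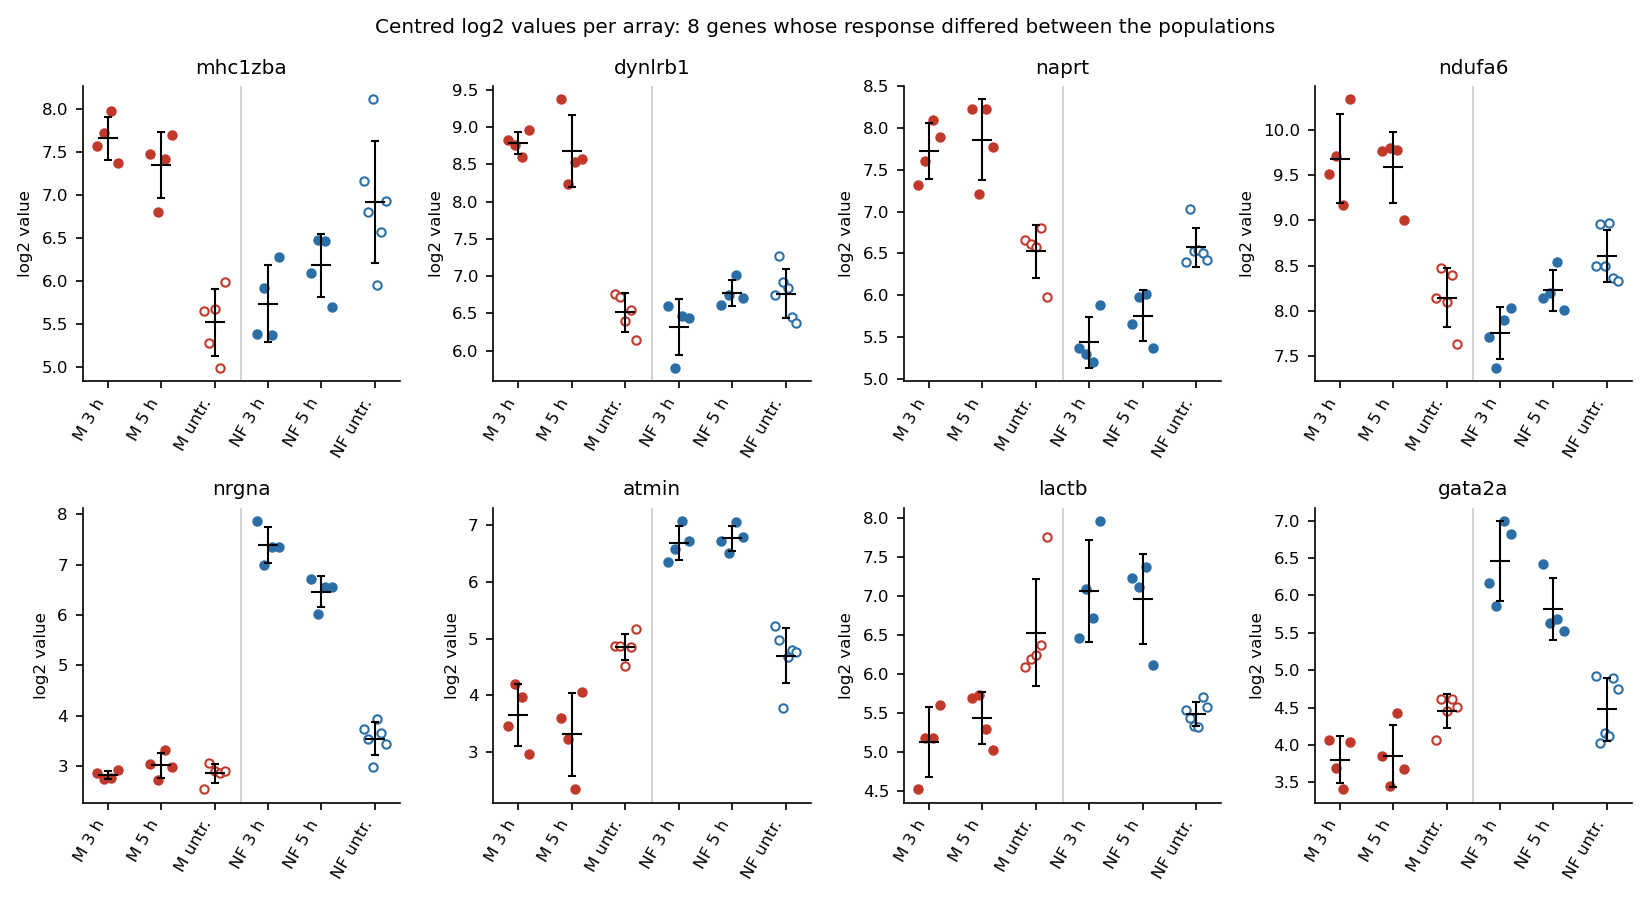
Log2 values with array medians made equal (y axis) of 8 called genes, 1 point per array, for mCherry+ mantle cells (M, red) and non-fluorescent cells (NF, blue) at 3 h and 5 h after copper (filled) and untreated (open); black bars are the mean and SD. Mhc1zba, dynlrb1, naprt and ndufa6 are high in treated mantle arrays, and nrgna, atmin, lactb and gata2a in treated non-fluorescent arrays.

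The calls varied with the fit. Among 40 alternative fits, which include leaving out each of the 27 arrays, nrgna was called in 40, atmin in 39, mhc1zba in 38, naprt in 37, and ndufa6 and lactb in 35 each. Sfmbt2 and h2az2b were called in 16 each, and gig2l in 13 of 39. Of the 18 genes, 11 were also called within treated arrays with the same sign, where 1.13% of all genes were called. The named ones among these are mhc1zba, dynlrb1, naprt, ndufa6, sfmbt2, idi1, atmin, nrgna, lactb and h2az2b. Both comparisons use the same 3 h and 5 h arrays, so this overlap is partly built in and is no independent check.

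The difference was tested at each time too. At 3 h 91 genes were called (0.472%), 39 with the higher and 52 with the lower response in mantle cells, and 17 of the 18 genes above were among them. At 5 h limma called 0 genes, with 1528 at an unadjusted p below 0.05, and without the adjustment term 906 were called (4.7%). This contrast between the times is not itself a test. Whether the change between 3 h and 5 h differed between the populations was tested directly, and 4 genes passed (0.0208%), 2 in each direction. Within treated arrays, 36 of the 91 genes called at 3 h were called with the same sign, beside 1.13% of all genes called there. The 3 h arrays enter both comparisons, so this overlap too is partly built in.

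The genes named for 3 h were picked after their values were seen, as the 6 largest differences in each direction, and they include a ligand, a chemokine and a nuclease. Kitlgb, a ligand of the Kit receptor, was at 7.58, 5.43, 6.08 and 6.46 at 3 h and 5.21, 5.12, 5.09 and 5.13 at 5 h in mantle cells, against 3.80, 3.91, 3.93, 3.42 and 3.38 untreated. In non-fluorescent cells it was at 3.89 to 5.54 at 3 h and 4.44 to 6.05 at 5 h, against 5.55 to 6.38 untreated. The mantle groups were apart, with a response of 2.11 ± 0.53 (adjusted p = 0.029), and the difference at 3 h was 3.72 ± 0.80 (adjusted p = 0.0244). Dnase2, a lysosomal nuclease, was at 6.78 to 7.74 at 3 h and 6.95 to 7.77 at 5 h in mantle cells, against 4.25 to 5.81 untreated. It differed by 3.43 ± 0.72 at 3 h (adjusted p = 0.02), and over both times by 2.99 ± 0.66 (adjusted p = 0.0506), just outside the threshold. Ddrgk1, which acts in protein modification at the endoplasmic reticulum, differed by 3.31 ± 0.80 (adjusted p = 0.0446), with the non-fluorescent response called (-2.23 ± 0.51, adjusted p = 0.0195). Kiaa0232 differed by 3.81 ± 0.76 (adjusted p = 0.0158).

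TSPAN1, a tetraspanin at the cell surface, and alpl, the alkaline phosphatase gene that names the mCherry reporter, had the lower response in mantle cells. TSPAN1 was at 1.78, 3.32, 1.82 and 3.74 at 3 h and 4.07, 5.10, 4.52 and 3.22 at 5 h in mantle cells, against 6.34, 6.51, 4.51, 7.07 and 6.97 untreated. In non-fluorescent cells it was at 2.30 to 2.41 and 2.15 to 2.45, against 1.90 to 3.95 untreated. All non-fluorescent values and all mantle values at 3 h were below the array median of 4.85. At 3 h 2 of the mantle arrays lay below every non-fluorescent array of that time, and only untreated replicate 3 overlapped the 5 h mantle arrays. The mantle response was -2.80 ± 0.54 (adjusted p = 0.0049) and the difference at 3 h -3.36 ± 0.81 (adjusted p = 0.0446), while over both times it was -2.58 ± 0.75 (adjusted p = 0.146).

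Alpl was at 4.74, 5.71, 5.47 and 5.85 at 3 h and 6.42, 6.21, 6.35 and 5.87 at 5 h in mantle cells, against 6.66, 6.66, 6.46, 7.14 and 7.23 untreated. It was at 7.22, 7.92, 7.27 and 7.32 and then 6.81, 6.25, 6.65 and 6.80 in non-fluorescent cells, against 6.37, 6.23, 6.38, 5.99, 6.51 and 6.37 untreated. At 3 h all mantle arrays lay below, and all non-fluorescent arrays above, their untreated arrays. The difference was -2.51 ± 0.59 at 3 h (adjusted p = 0.0436) and -1.72 ± 0.54 over both times (adjusted p = 0.177). Alpl was the only called gene at 3 h among the 28 of the neuromast list (beside 0.472% of all genes), whose median difference at 3 h was -0.09. That list also names tspan1, which was not matched to TSPAN1 because the annotation writes it in capitals, so the 28 do not include it.

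Cxcl12a, the chemokine that guides the migrating lateral line primordium, differed by -3.06 ± 0.73 at 3 h (adjusted p = 0.0442). It was at 4.24 to 5.26 at 3 h and 4.11 to 5.35 at 5 h in mantle cells, against 5.42 to 5.92 untreated. Non-fluorescent cells, which express it strongly, held 10.10 to 10.69 and 9.19 to 9.67, against 8.05 to 8.99 untreated. The arrays of 3 h and 5 h were apart from the untreated in both populations. Neither response over both times was called (-0.98 ± 0.48 and 1.42 ± 0.47). Other genes lower in mantle cells at 3 h were oafa (-3.92 ± 0.80) and slc16a6a (-3.35 ± 0.70), a transporter that exports ketone bodies from the zebrafish liver.

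**Figure D3:**
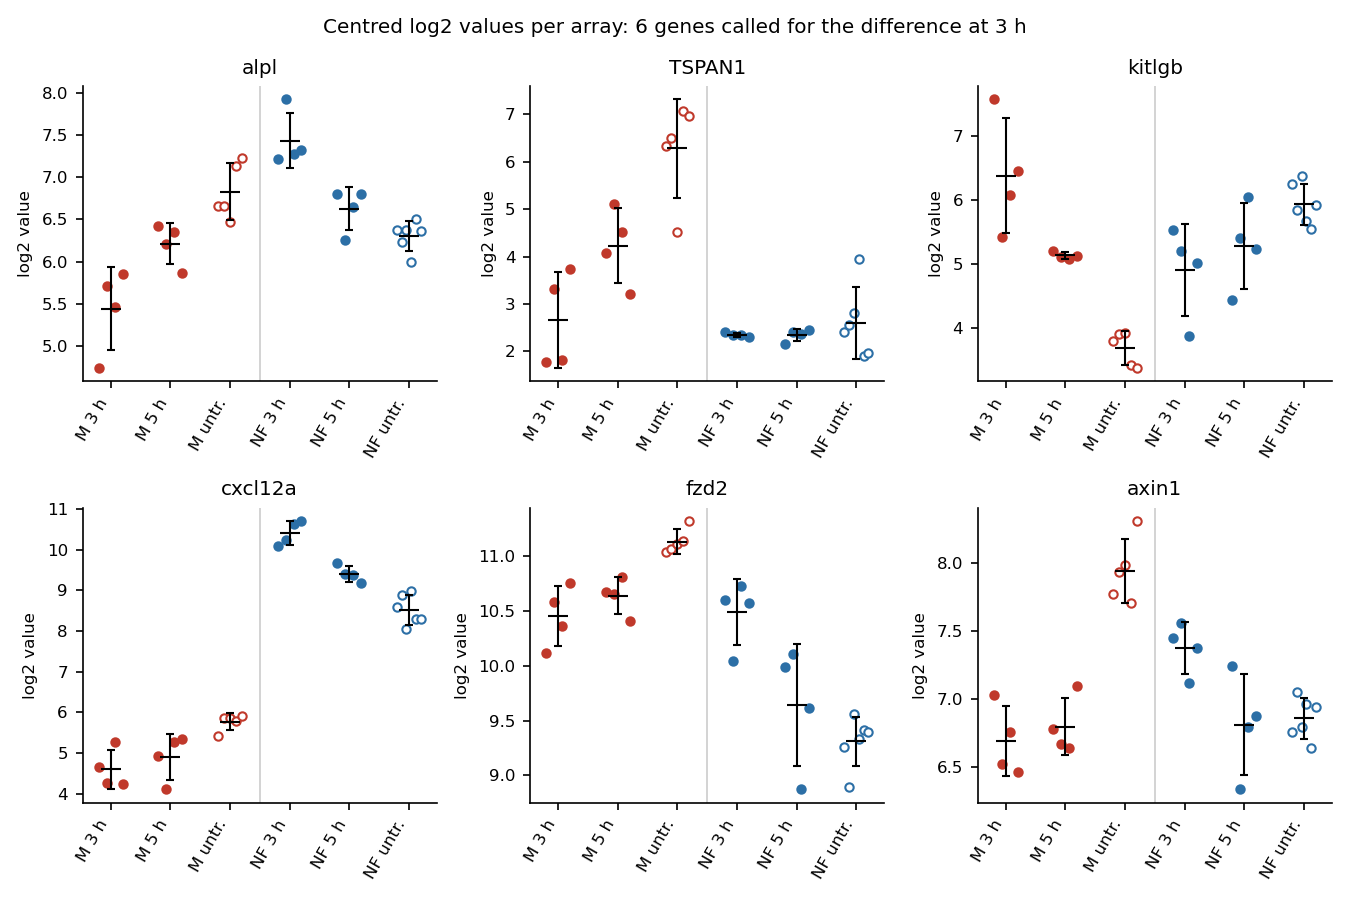
Log2 values with array medians made equal (y axis) of 6 genes called for the difference at 3 h, 1 point per array, for mCherry+ mantle cells (M, red) and non-fluorescent cells (NF, blue) at 3 h and 5 h after copper (filled) and untreated (open), with mean and SD in black. Alpl, TSPAN1, cxcl12a, fzd2 and axin1 are lower in mantle cells at 3 h than untreated, and kitlgb is higher.

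Seraf, rarab, sult1st4 and pphln1 were the genes whose change between 3 h and 5 h differed (adjusted p = 0.0476 each). Seraf, named for a Schwann cell growth factor, was at 5.70 to 6.80 at 3 h and 7.08 to 8.02 at 5 h in mantle cells, and at 9.91 to 11.39 at 3 h and 7.84 to 9.43 at 5 h in non-fluorescent cells. The 5 h arrays were the higher ones in mantle cells and the lower ones in non-fluorescent cells, with a difference of 2.84 ± 0.55. Rarab, a retinoic acid receptor, differed by 1.79 ± 0.35, with mantle cells at 6.42 to 7.14 and then 7.35 to 8.19 and non-fluorescent cells at 7.76 to 8.28 and then 6.93 to 7.36. Sult1st4, a cytosolic sulfotransferase, differed by -1.66 ± 0.32 and pphln1, a nuclear protein of heterochromatin silencing, by -1.33 ± 0.26. Of 39 alternative fits, seraf was called in 11, rarab in 11, sult1st4 in 12 and pphln1 in 9.

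Signalling genes of the lateral line were followed as lists. Of 53 Wnt pathway genes 0 were called over both times (beside 0.0935% of all genes), and at 3 h 2 were called (beside 0.472%), fzd2 and axin1, both with the lower response in mantle cells. At shares this low, a count of 0 in a list of this size is near the background, here and in the lists below. Axin1, a scaffold of the complex that degrades beta-catenin, was at 7.03, 6.52, 6.75 and 6.46 at 3 h and 6.77, 6.66, 6.64 and 7.09 at 5 h in mantle cells, against 7.77, 7.93, 7.98, 7.70 and 8.31 untreated. Non-fluorescent cells ranged from 7.11 to 7.56 at 3 h and from 6.33 to 7.24 at 5 h, against 6.64 to 7.05 untreated. The mantle response was -1.16 ± 0.25 (adjusted p = 0.0126), the difference at 3 h -1.76 ± 0.38 (adjusted p = 0.0248), over both times -1.43 ± 0.35 (adjusted p = 0.0875), and within treated arrays -1.40 ± 0.33 (adjusted p = 0.0286). Fzd2, a Wnt receptor, differed by -1.85 ± 0.42 at 3 h (adjusted p = 0.0352). Neither wnt3 (1.24 ± 0.56, adjusted p = 0.404), lef1 (0.26 ± 0.42) nor axin2 (-0.64 ± 0.43) was called, and wnt3 had the other sign within treated arrays (-0.66 ± 0.53). The mantle levels of wnt3 were 5.99 to 7.09 at 3 h and 6.39 to 7.51 at 5 h, all above the 5.28 to 5.89 untreated. At 1 h and 11 h they were 6.46 to 7.65. The mantle response of 1.14 ± 0.40 was not called (limma adjusted p = 0.135).

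In the Fgf pathway, with 35 genes measured, 3 fell in mantle cells (beside 0.691% of all genes) and 0 differed between the populations (beside 0.0935%). Fgf3, a ligand made in neuromasts, was at 4.40, 4.26, 5.02 and 4.72 at 3 h and 5.04, 3.97, 5.00 and 4.61 at 5 h in mantle cells, against 6.40, 6.31, 6.93, 5.91 and 6.83 untreated. Every mantle array of 3 h and 5 h was below every untreated one. The mantle response was -1.81 ± 0.39 (adjusted p = 0.0126), the non-fluorescent one -0.58 ± 0.38 (adjusted p = 0.494) and the difference -1.23 ± 0.55 (adjusted p = 0.395), so the populations were not shown to differ against untreated arrays. Within treated arrays the difference for fgf3 was -2.20 ± 0.52 (adjusted p = 0.0266) and for the receptor gene fgfr4 -1.66 ± 0.37 (adjusted p = 0.0177). Fgfr4 itself fell in mantle cells by 1.04 ± 0.28, and spry1, a feedback inhibitor of Fgf signalling, had a response of -2.23 ± 0.61 (adjusted p = 0.048). Fgfr1a was not called (-0.78 ± 0.35).

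Of 35 Notch pathway genes 0 differed over both times (beside 0.0935% of all genes) or at 3 h (beside 0.472%). Lfng, a sugar transferase that modifies Notch, fell in mantle cells by 1.34 ± 0.36 (adjusted p = 0.0411), and dld, a Notch ligand, had a response of -1.105 ± 0.29 in non-fluorescent cells (adjusted p = 0.0418). The differences were -1.17 ± 0.50 for lfng, 0.83 ± 0.42 for dld, -0.38 ± 0.37 for notch3, -0.46 ± 0.38 for dla and -0.21 ± 0.58 for her4.1, with adjusted p-values from 0.365 to 0.942. Atoh1a, the factor that specifies hair cells, stood at 4.99 to 5.37 at 3 h and 5.23 to 5.89 at 5 h in mantle cells, against 4.25 to 4.98 untreated. The mantle arrays of 3 h and 5 h were all above the untreated, but the difference of 0.91 ± 0.34 (limma adjusted p = 0.297) was not called. Sox2 (-0.01 ± 0.61), pcna (-0.20 ± 0.45), stat3 (-0.17 ± 0.47) and mmp9 (0.61 ± 1.34) were not called either.

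Keratinocyte genes made up the list with the highest median difference of 26. Over its 33 measured genes the median was 1.34, beside -0.02 over all genes, and 30 of 33 lay above 0, beside 9368 of 19260. The mean level of the list in the mantle arrays was 8.999, 8.31, 8.19 and 7.82 at 3 h and 8.30, 7.65, 6.93 and 8.40 at 5 h, against 6.99, 6.99, 7.22, 6.30 and 6.79 untreated. In non-fluorescent arrays it was 8.50 to 9.10 at 3 h and 8.82 to 9.13 at 5 h, against 8.16 to 9.20 untreated. All mantle arrays of 3 h and 5 h, but 1 at 5 h, were above the untreated ones, and the non-fluorescent groups overlapped. None of the 33 genes was called for the difference, beside 0.0935% of all genes. Without the adjustment term 12 were higher (beside 6.11% of all genes) and 1 lower (beside 7.73%).

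In the mantle response cdh1, which encodes E-cadherin, rose by 2.18 ± 0.59 (adjusted p = 0.048) and jupa, a plakoglobin of cell junctions, by 1.64 ± 0.36 (adjusted p = 0.0131), 2 of 33 against 0.82% of all genes higher. The plakin genes ppl (2.37 ± 0.90) and dspa (2.105 ± 0.66) and the keratin gene krt17 (2.11 ± 1.31) had large differences that were not called. Krt17 ranged from 6.46 to 10.08 at 3 h and from 5.01 to 9.22 at 5 h in mantle cells, against 5.36 to 6.74 untreated. Its spread among arrays of the same group is wider than the shift itself. The list's mantle levels at 1 h and 11 h lay between 6.77 and 8.01, and within treated arrays its median difference was 0.60. The part of these keratinocyte values in the other mantle differences was not tested.

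**Figure D4:**
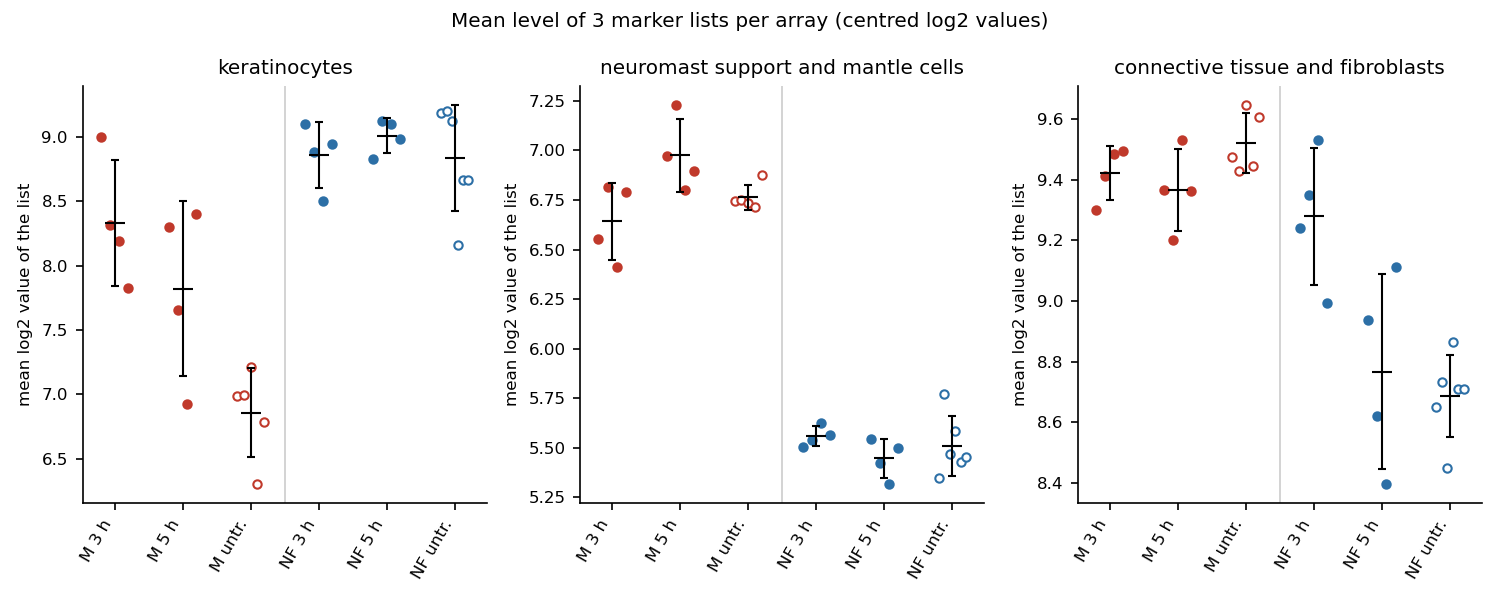
Mean log2 value with array medians made equal (y axis) of the keratinocyte (33 genes), neuromast support and mantle cell (28 genes) and connective tissue (34 genes) lists, 1 point per array, for mCherry+ mantle cells (M, red) and non-fluorescent cells (NF, blue) at 3 h and 5 h after copper (filled) and untreated (open), with mean and SD in black. The keratinocyte mean is higher after copper in mantle arrays, and the connective tissue mean is higher at 3 h in non-fluorescent arrays.

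Other marker lists went either way. The medians were higher in the mantle response for muscle (0.03 in mantle and -0.26 in non-fluorescent cells), leukocytes (0.14 and -0.08), ionocytes (0.32 and -0.13) and neurons (0.05 and -0.04). They were higher in the non-fluorescent response for pigment cells (-0.01 in mantle and 0.19 in non-fluorescent cells) and endothelial cells (0.03 and 0.25). For erythrocytes (12 measured) both were below 0 (-0.445 and -0.30). Untreated levels of that list varied widely, at 3.55, 3.50, 5.30, 5.28 and 4.88 in mantle arrays. Untreated non-fluorescent arrays held 5.71, 5.48, 5.25, 8.19, 7.63 and 7.56. The cause of this spread was not tested. The Schwann cell and glia list (13 measured) had a median response of -0.11 in mantle and 0.57 in non-fluorescent cells, and its mean level was 5.86 to 6.25 at 3 h and 5.72 to 6.29 at 5 h in non-fluorescent arrays, against 5.32 to 5.72 untreated. The connective tissue list (34 measured) had median responses of -0.04 and 0.40, with non-fluorescent levels of 8.99 to 9.53 at 3 h, all above the untreated 8.45 to 8.86. Of these lists 0 genes were called over both times (beside 0.0935% of all genes), and cxcl12a was the 1 connective tissue gene called at 3 h (beside 0.472%). Fn1b, a fibronectin gene, rose in mantle cells by 2.02 ± 0.47 (adjusted p = 0.0212) and stood at 1.39 ± 0.46 in non-fluorescent cells, and pecam1a, an endothelial adhesion gene, rose in non-fluorescent cells by 1.13 ± 0.25 (adjusted p = 0.0137). The part of these cell types in nrgna, gata2a and the other non-fluorescent responses was not tested.

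Some genes of protein folding in the endoplasmic reticulum fell in each population, with hspa5 and srp68 called in both. Of 54 measured, 7 fell (beside 0.691% of all genes) and 1 rose (beside 0.82%) in the mantle response. In the non-fluorescent response 5 fell (beside 0.561%) and 1 rose (beside 0.992%). Between the populations 0 differed over both times (beside 0.0935%). With other scalings 8 to 9 fell in mantle cells and 4 to 5 in non-fluorescent cells. Hspa5, the chaperone BiP, was at 8.85, 8.83, 8.60 and 9.59 at 3 h and 9.003, 9.64, 9.13 and 8.52 at 5 h in mantle cells, against 10.41, 10.34, 10.53, 10.66 and 10.71 untreated. In non-fluorescent cells it was at 8.26 to 9.06 and 8.42 to 8.96, against 9.40 to 10.35 untreated. It fell by 1.47 ± 0.34 (adjusted p = 0.0211) and 1.22 ± 0.33 (adjusted p = 0.0491) with no overlap in either, and the difference was -0.25 ± 0.48 (adjusted p = 0.911).

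Creld2, a secreted stress-induced protein of the endoplasmic reticulum, fell by 2.43 ± 0.34 in mantle cells (adjusted p = 0.000242) and stood at -0.41 ± 0.33 in non-fluorescent cells, with a difference of -2.02 ± 0.47 (adjusted p = 0.0752). Hsp90b1, the chaperone GRP94, fell by 1.90 ± 0.35 (adjusted p = 0.00288) in mantle cells, and srp68, of the signal recognition particle, by 1.32 ± 0.31 in mantle and 1.37 ± 0.31 in non-fluorescent cells. Ssr3, a translocon-associated protein, rose in non-fluorescent cells by 1.33 ± 0.26 and differed by -1.68 ± 0.40 at 3 h (adjusted p = 0.0442).

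Among 39 genes of copper handling and antioxidant defence 0 differed, beside 0.0935% of all genes. In mantle cells 1 rose (beside 0.82%) and 1 fell (beside 0.691%). Sqstm1, the autophagy receptor p62, rose there by 1.57 ± 0.29 (adjusted p = 0.00301) and srxn1, which repairs oxidized peroxiredoxins, fell by 1.72 ± 0.32 (adjusted p = 0.0043). Sqstm1 was at 9.43 to 9.80 at 3 h and 8.69 to 9.27 at 5 h in mantle cells, against 7.67 to 7.89 untreated, with no overlap, and at 8.88 to 9.45 in treated non-fluorescent cells, against 8.49 to 9.60 untreated. The differences were 1.35 ± 0.40 (adjusted p = 0.152) and -1.01 ± 0.45 (adjusted p = 0.395). Atox1, a copper chaperone, differed by -2.28 ± 0.47 within treated arrays (adjusted p = 0.012), with mantle levels of 6.95 to 8.50 at 3 h and 5 h, against 8.06 to 9.56 at 1 h and 11 h. In that comparison the non-fluorescent rise of 1.25 ± 0.33 was called (limma adjusted p = 0.0233). The mantle change of -1.03 ± 0.33 was not (adjusted p = 0.0819). Against untreated arrays atox1 differed by -1.05 ± 0.49 (adjusted p = 0.43).

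**Figure D5:**
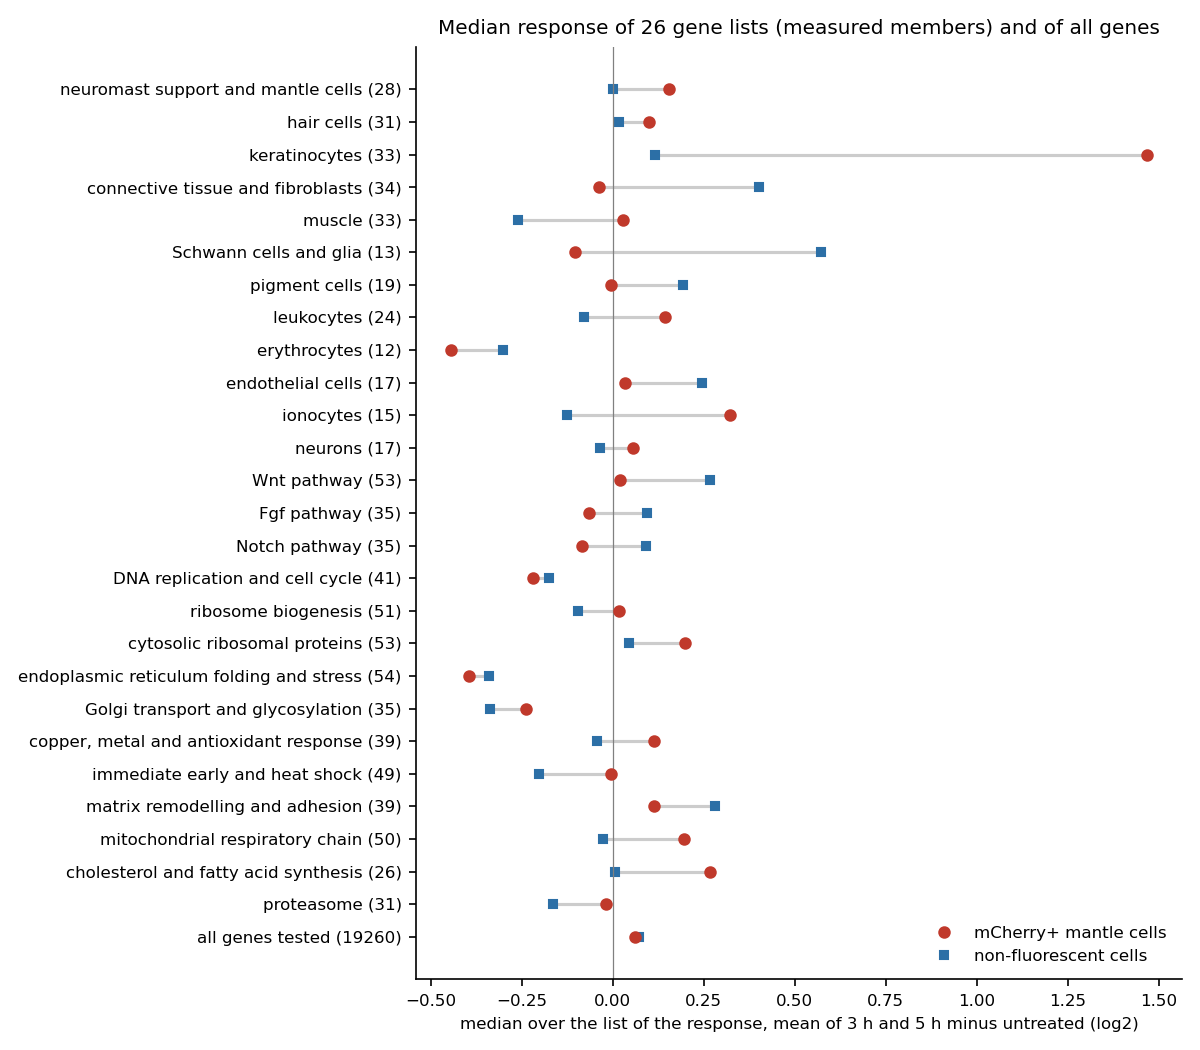
Median response of each gene list (x axis, log2, mean of 3 h and 5 h minus untreated) in mCherry+ mantle cells (red circles) and non-fluorescent cells (blue squares), with the number of measured genes in brackets and all 19260 genes in the lowest row. Keratinocyte genes stand apart in mantle cells, and endoplasmic reticulum genes are below 0 in both populations.

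The single-population responses give the scale of these differences. In mantle cells 291 genes were called (1.51%), 158 higher and 133 lower, and in non-fluorescent cells 299 (1.55%), 191 higher (0.992%) and 108 lower. With array medians taken over all probe sets the split was 106 higher and 297 lower in mantle cells and 81 and 221 in non-fluorescent cells, so the balance of directions depends on the scale. On the deposited scale the median difference of all genes was -0.13. Within treated arrays 218 genes differed between the populations (1.13%), 81 higher and 137 lower.

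Besides the genes of both comparisons, the 218 held sostdc1b, a secreted inhibitor of Bmp and Wnt signalling, at -2.92 ± 0.67 (limma adjusted p = 0.0232). It was among the 6 lowest without placeholder symbols, where fahd2a (-4.74), srp19 (-3.09) and naa20 (-3.07) were lower. The 6 highest included tspan36 (3.13), rasl11b (3.10) and rfc2 (3.02). The mantle levels of sostdc1b were 5.65, 6.67, 5.90 and 7.68 at 3 h and 7.53, 8.08, 7.76 and 6.28 at 5 h, against 8.69 to 11.22 at 1 h and 11 h. Untreated mantle cells held 8.25 to 8.98, also above every mantle array of 3 h and 5 h. Against untreated arrays, however, neither the mantle response of sostdc1b (-1.74 ± 0.50, limma adjusted p = 0.0674) nor the difference (-1.21 ± 0.70, adjusted p = 0.552) was called. Hey2, a Notch target, differed by 2.105 ± 0.51 (adjusted p = 0.031) within treated arrays and by 1.26 ± 0.54 (adjusted p = 0.367) against untreated arrays.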

How the data were processed

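The deposited values are log2 signals per probe set, made by the authors with Partek 6.6 and RMA, per the submitters' processing notes; the log base was inferred as 2 from their range of -1.29 to 15.05. Of 75212 probe sets, 20806 had 1 gene symbol in the platform annotation, 855 several and 53551 none. For each symbol, the probe set brightest on average was used, giving 19260 genes, and each array was shifted to the mean of the array medians over them. Limma 3.58.1 in R 4.3.3 was fitted to 46 arrays in 10 groups, with a term per population for replicates 1 to 3 at 3 h and 5 h, and p-values were adjusted by Benjamini-Hochberg over all genes. The fit was also run on simulated arrays with independent noise and an adjustment like that at 3 h and 5 h. The simulation held no level difference between untreated populations, no likeness among untreated arrays and no other processing shift. It therefore does not test those limits. Symbols were updated through RefSeq, where 20323 probe sets matched and 1 symbol changed. Named genes were up to 10 called genes per direction, also within treated arrays, list members that were called and a set of regeneration genes. Chosen later were 6 per direction at 3 h, 6 per direction within treated arrays and 6 keratinocyte genes. Placeholder symbols were left out of the names. The members and all gene lists were chosen with earlier results of these data known. Alternatives were 13 other fits and leaving out each of the 27 arrays. The replicate numbers were not taken to pair the samples.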

Additional observations from a re-analysis of the deposited data

Results flagged for a closer look

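In groups of 4 to 10 arrays, 1 array was checked for standing apart from the rest of its group (Dixon's 95% limit). Over 258 such groups, chance flags about 1 in 20, and 20 were flagged.

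Among untreated mantle arrays, replicate 5 stood apart in 5 genes. It held 5.98 for naprt (the others 6.57 to 6.80), 7.76 for lactb (the others 6.10 to 6.38), 6.06 for rdh12 (the others 4.80 to 4.98), 6.54 for notch3 (the others 5.89 to 6.06) and 6.72 for ddrgk1 (the others 7.39 to 7.64). Seraf was at 7.49 in replicate 4 (the others 5.89 to 6.31), TSPAN1 at 4.51 in replicate 3 (the others 6.34 to 7.07) and cxcl12a at 5.42 in replicate 1 (the others 5.80 to 5.92). Among untreated non-fluorescent arrays, replicate 2 held 8.01 for enoph1 (the others 5.93 to 6.46), 7.03 for naprt (the others 6.40 to 6.54), 6.47 for lfng (the others 6.98 to 7.20) and 8.91 for ddrgk1 (the others 6.65 to 7.21). Replicate 4 of that group held 5.12 for sfmbt2 (the others 5.87 to 6.25) and 6.94 for dnase2 (the others 4.99 to 5.56).

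After copper, replicate 4 stood apart in mantle cells at 5 h for ndufa6 (9.0001, the others 9.76 to 9.80) and h2az2b (8.58, the others 7.57 to 7.72). In non-fluorescent cells it stood apart for bloc1s6 at 5 h (8.23, the others 7.18 to 7.32) and seraf at 3 h (11.39, the others 9.91 to 10.06). In the adjusted values the deviations of replicate 4 at 3 h and at 5 h mirror each other in each population. These replicate 4 flags are therefore not independent of the other time. Lef1 was at 10.14 in mantle replicate 2 at 5 h (the others 9.94 to 9.97) and alpl at 7.92 in non-fluorescent replicate 2 at 3 h (the others 7.22 to 7.32).

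The response differed between mantle and non-fluorescent cells by the test of the difference itself in 15 named genes. The differences were 2.95 for mhc1zba, 2.84 for enoph1, 2.45 for dynlrb1, 2.25 for naprt, 2.25 for bloc1s6, 2.101 for ndufa6, 1.93 for sfmbt2, 1.84 for idi1 and 1.60 for gig2l. They were -3.39 for atmin, -3.32 for nrgna, -2.77 for lactb, -2.28 for gata2a, -2.12 for rdh12 and -1.91 for h2az2b. At 3 h the differences were 3.81 for kiaa0232, 3.72 for kitlgb, 3.43 for dnase2, 3.33 for mhc1zba, 3.31 for ddrgk1 and 2.93 for bloc1s6. In the other direction at 3 h they were -3.92 for oafa, -3.88 for nrgna, -3.36 for TSPAN1, -3.35 for slc16a6a, -3.18 for atmin and -3.06 for cxcl12a. For the change between 3 h and 5 h they were 2.84 for seraf, 1.79 for rarab, -1.66 for sult1st4 and -1.33 for pphln1.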

How the results depend on the processing

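Counts of called genes depended strongly on how the earlier adjustment of the values was treated. Without the adjustment term they were 2665 for the difference over both times, 2434 at 3 h, 906 at 5 h, 3892 and 4133 for the mantle and non-fluorescent responses, 17 for 5 h minus 3 h, 4345 within treated arrays and 1119 with the mantle response alone called. With terms for the untreated arrays too they were 7 over both times, 33 at 3 h, 29 and 104 for the responses, 0 for 5 h minus 3 h, 144 within treated arrays and 1 with the mantle response alone. With only the 27 arrays they were 108, 315 and 7 over both times, at 3 h and at 5 h, 610 and 631 for the responses, 22 for 5 h minus 3 h and 51 with the mantle response alone. With replicate 4 alone, 260 were called at 3 h, 51 at 5 h and 285 for 5 h minus 3 h. At an adjusted p below 0.01 the counts were 1 over both times, 1 at 3 h, 49 and 42 for the responses, 0 for 5 h minus 3 h, 24 within treated arrays and 0 with the mantle response alone. With 1 h and 11 h arrays in place of untreated, 218 differed.

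Same-numbered arrays of the populations correlated at 0.01 to 0.15 at 3 h and 5 h and at -0.08 to 0.34 untreated, so the numbers were not taken to pair them. With the replicate number as a block, 18 genes differed over both times, and the counts were 66 and 91 for the responses, 0 for 5 h minus 3 h, 130 within treated arrays and 5 with the mantle response alone; sox2 was at 0.0398. Uncentred values gave 4 at 5 h, 571 for the non-fluorescent response (469 higher, 102 lower) and 1 for 5 h minus 3 h, and centring over all probe sets gave 1 for 5 h minus 3 h and 0.0174 for sox2. Quantile normalization gave 149 at 3 h, 6 at 5 h and 16 for 5 h minus 3 h. Trend and robust settings gave 2 at 5 h and 0 for 5 h minus 3 h, the mean of a gene's probe sets 0 and leaving out dim genes 12 for 5 h minus 3 h. With 1 h and 11 h arrays, wnt3 was at -0.66 and pcna at 0.0739.

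Leaving out 1 array at a time gave 5 to 179 genes over both times, 41 to 283 at 3 h, 0 to 71 at 5 h, 145 to 408 and 202 to 614 for the responses, 0 to 11 for 5 h minus 3 h, 164 to 516 within treated arrays and 3 to 91 with the mantle response alone. Over both times, 6 were called without untreated non-fluorescent replicate 2, 8 without replicate 3, 11 without untreated mantle replicate 2 and 5 without replicate 5. Without replicate 4 the count was 131 for mantle 3 h, 83 for mantle 5 h, 107 for non-fluorescent 3 h and 179 for non-fluorescent 5 h. Signs turned only in genes that were not called, with ranges of -0.64 to 0.63 for sox2, -0.42 to 0.0163 for her4.1, -0.0104 to 1.67 for dld, -0.32 to 0.84 for lef1, -0.64 to 0.30 for stat3, -1.50 to 0.23 for axin2, -1.03 to 0.54 for hspa5, -2.37 to 0.0297 for lfng, -0.70 to 0.31 for pcna and -0.15 to 1.38 for mmp9. The cause was not tested. Low signal limits several genes, whose values lie below the array median. Among them are gig2l, nrgna and gata2a in mantle cells and atmin in mantle cells at 3 h and 5 h. TSPAN1 is limited likewise in non-fluorescent cells and in mantle cells at 3 h.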
